A study of Mus musculus with 12 samples.

Results

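The 36 genes described here are the mRNAs of the ATF4 programme and of the cytosolic aminoacyl-tRNA synthetases. They were taken by name from a list of known genes of both kinds, and all 36 were found among the 16283 genes of the count table, methionyl-tRNA synthetase under its newer symbol Mars1. By role they comprise 8 factors and feedback genes, 8 enzymes of serine, folate and asparagine metabolism, 2 transporter subunits and 18 synthetases. RNA was sequenced from 4T1 cells, a mouse mammary tumour line that stands in for triple-negative disease, in a study of what the transcription factor gene Cebpd contributes to the cells' transcripts. All cells carried a CRISPR guide. The guide of control cells targeted Rosa26, a neutral locus, and the cells labelled as Cebpd knockout carried either of 2 guides against Cebpd, sgRNA1 or sgRNA2. Each line was given vehicle or interferon gamma (IFN-gamma) at 20 ng/ml for 24 hours, which makes 6 groups of 2 libraries. Whether a line was 1 clone or a pool is not given in the sources used here. The labels do not tell whether libraries of 1 group come from separate cultures, so each p-value measures only how far these samples spread, and that spread may be technical.

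ATF4 is the transcription factor at the end of the integrated stress response. When amino acids run short, when unfolded protein gathers in the endoplasmic reticulum, when heme is low or when double-stranded RNA is sensed, kinases phosphorylate the initiation factor eIF2, which lowers general protein synthesis but favours translation of the Atf4 mRNA. The mRNA level of Atf4 is therefore not a measure of its protein. ATF4 binds C/EBP-ATF response elements (CARE), usually as a dimer with a C/EBP family protein, and its known targets make serine and glycine, load folate with carbon units, import amino acids and charge tRNAs. IFN-gamma is a known inducer of Wars, the tryptophanyl-tRNA synthetase, beside enzymes that degrade tryptophan.

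The regulatory sequence of these genes is shown first. Its part in the changes below was not tested, and the members were chosen as known genes of the programme. A RefSeq window from 250 bases before to 50 bases after the annotated start (build GRCm38.p6) was matched for 27 of the 36 members. Aldh1l2, Slc7a5, Wars, Nars, Lars, Vars, Cars, Hars and Rars were not searched. The letters TGATGNAA, a common core of CARE sites, were searched on both strands, and at least 1 match was found in 10 of the 27 members against 4.51% of 27025 genes with a window. Matches of members other than Aars are printed with their surroundings, at most 30 bases on the gene's own strand, with the matched letters in capitals. Where the match is on the opposite strand, the capitals read as its reverse complement.
Atf3, chr1:191183425-191183454, minus strand: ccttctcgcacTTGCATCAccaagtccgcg
Chac1, chr2:119351038-119351067, plus strand: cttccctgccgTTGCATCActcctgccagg
Trib3, chr2:152344028-152344057, minus strand: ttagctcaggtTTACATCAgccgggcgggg
Vldlr, chr19:27216809-27216838, plus strand: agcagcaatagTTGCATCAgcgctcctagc
Asns, chr6:7693214-7693243, minus strand: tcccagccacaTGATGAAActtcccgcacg
Gars, chr6:55037960-55037989, plus strand: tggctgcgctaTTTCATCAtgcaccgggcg
Iars, chr13:49682126-49682155, plus strand: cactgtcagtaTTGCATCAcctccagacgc
Tars, chr15:11399659-11399684, minus strand: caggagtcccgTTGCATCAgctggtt
Yars, chr4:129189895-129189924, plus strand: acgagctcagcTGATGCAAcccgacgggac
The first bases of the printed matches lay from -200 to 15 counted from the annotated start, and those of Trib3, Iars and Yars began after it. A match is a description of letters, not of a bound site.

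Letters of elements known from IFN-gamma target genes were searched in the same windows. TTCNNNGAA, a core of gamma-activated sites, was found in 3 of the 27 members (Aars, Kars and Shmt2) against 9.55% of genes. A pair of GAAA repeats with 2 bases between them, a core of interferon-stimulated response elements, was found in 3 (Ppp1r15a, Qars and Vldlr) against 3.99%. These are the matches in members other than Aars that changed at least 2-fold in a comparison below.
Shmt2, chr10:127522480-127522509, minus strand: aaaactacaaTTCCCAGAAggcaatttttt
Ppp1r15a, chr7:45526469-45526498, minus strand: aaaataaaagGAAAGGGAAAtggcacggta
Vldlr, chr19:27216511-27216533, plus strand: tctttctctcTTTCTCTTTCaca
Vldlr has 2 annotated starts, and its CARE match and its GAAA pair lie in the windows of different ones.

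Total counts were between 16912710 and 24784371 per library. Levels are CPM, counts relative to the scaled size of their library. Cebpd itself stood at 9.09 and 7.13 CPM in control cells, 13.6 and 13.4 in sgRNA1 cells and 10.6 and 8.51 in sgRNA2 cells given vehicle, and at 53.5 and 49.1, 45.9 and 45.6 and 30.2 and 29.4 in IFN-gamma. Its mRNA thus did not separate the lines by label in vehicle, and a count over the whole gene does not show a small edit. All 7 genes of a list kept as an IFN-gamma check were called higher in each line. Of all tested genes, 36.4% were in control, 31.7% with sgRNA1 and 30.5% with sgRNA2. With sgRNA2 in vehicle 6 of the 7 already stood above control vehicle (Irf1 at 126 and 127 CPM against 22.6 and 26.6), and Socs1 was lower (-2.09 ± 0.15). In that comparison 38.3% of all tested genes were higher and 35.0% lower. In IFN-gamma 7 of the 7 check genes were lower with sgRNA1 than in control (33.3% of all tested genes), and 5 of 7 with sgRNA2 (31.6%). Mitochondrially encoded mRNAs took between 0.533% and 1.18% of counts, with the highest shares in sgRNA2 vehicle and control IFN-gamma libraries. The 6 epithelial markers were all present and summed to 2014 to 3032 CPM. Of other cell types, the leukocyte gene Ptprc reached at most 0.567 CPM, the myeloid gene Itgam at most 0.161, the endothelial Pecam1 and Cdh5 together at most 0.483 and the fibroblast gene Col1a1 at most 3.97. Of the 4 myeloid markers with a row, the summed level was 4.86 to 35.9 CPM, mostly from Cd68, and was highest in control IFN-gamma, sgRNA2 vehicle and sgRNA2 IFN-gamma libraries. Csf1r, another of the 4, was at 7.52 and 9.02 CPM in sgRNA2 vehicle libraries against 0.775 and 0.734 in control vehicle libraries. The part of these differences in the results below was not tested.

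With IFN-gamma, members rose and fell in similar numbers in control cells, as all tested genes did, whereas in both Cebpd-guide lines most members rose. A gene is called changed below at a Benjamini-Hochberg adjusted p under 0.05 in edgeR's quasi-likelihood test over all 13601 tested genes, and all 36 members were tested. In control cells 14 members rose and 16 fell, where 36.4% of all tested genes rose and 34.1% fell. With sgRNA1, 29 rose and 4 fell (31.7% and 29.6% of all genes), and with sgRNA2, 30 rose and 2 fell (30.5% and 29.2%). At least 2-fold rises numbered 4 in control (12.4% of all genes), 10 with sgRNA1 (6.89%) and 20 with sgRNA2 (4.57%), and no member fell at least 2-fold in any line (10.8%, 5.32% and 7.48% of all genes did). The median log2 fold change of the members was -0.03 in control, 0.59 with sgRNA1 and 1.04 with sgRNA2, and that of all tested genes was 0.01, -6.64e-04 and -0.02. The difference of the response itself was tested as an interaction, and larger here means more positive, so a smaller fall also counts as larger. The response was larger than in control for 29 members and smaller for 3 with sgRNA1 (26.9% and 28.2% of all genes). With sgRNA2 it was larger for 27 and smaller for 3 (30.4% and 34.7%). At least 2-fold, 11 responses were larger and none smaller with sgRNA1 (7.26% and 8.14%), and 20 were larger and 2 smaller with sgRNA2 (11.9% and 15.6%). Both differences and the comparisons with control below share the control libraries.

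In the guide lines most members were lower than control in vehicle, and most were higher in IFN-gamma. In vehicle, 22 members were lower and 3 higher with sgRNA1 than in control (26.9% and 25.6% of all genes), and 26 were lower and 6 higher with sgRNA2 (35.0% and 38.3%). At least 2-fold, 1 member was lower and none higher with sgRNA1 (1.07% and 4.93%), and 11 were lower and 2 higher with sgRNA2 (8.79% and 17.2%). In IFN-gamma the balance was the reverse: 26 members were higher and 6 lower with sgRNA1 (31.6% and 33.3%), and 27 were higher and 4 lower with sgRNA2 (30.2% and 31.6%). At least 2-fold, 6 were higher and 1 lower with sgRNA1 (8.76% and 5.67%), and 2 were higher and none lower with sgRNA2 (5.82% and 2.99%). The sgRNA2 vehicle group held the lowest mean of the 6 groups for 22 of 36 members, 15 of them synthetases. The sgRNA1 IFN-gamma group held the highest mean for 13 members and the sgRNA2 IFN-gamma group for 11, and neither held the lowest mean of any. These counts of lowest and highest means were not made for all tested genes. They therefore describe the members only and cannot be set against a background share. Counted together, the 36 genes took 0.630% and 0.622% of all counts in the control libraries given vehicle, while sgRNA1 cells had 0.527% and 0.518% and sgRNA2 cells 0.381% and 0.373%. After IFN-gamma the control share was 0.569% and 0.561%, that of sgRNA1 cells 0.746% and 0.757% and that of sgRNA2 cells 0.729% and 0.740%. In bulk samples less RNA per cell and fewer cells of a kind cannot be told apart.

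**Figure D1:**
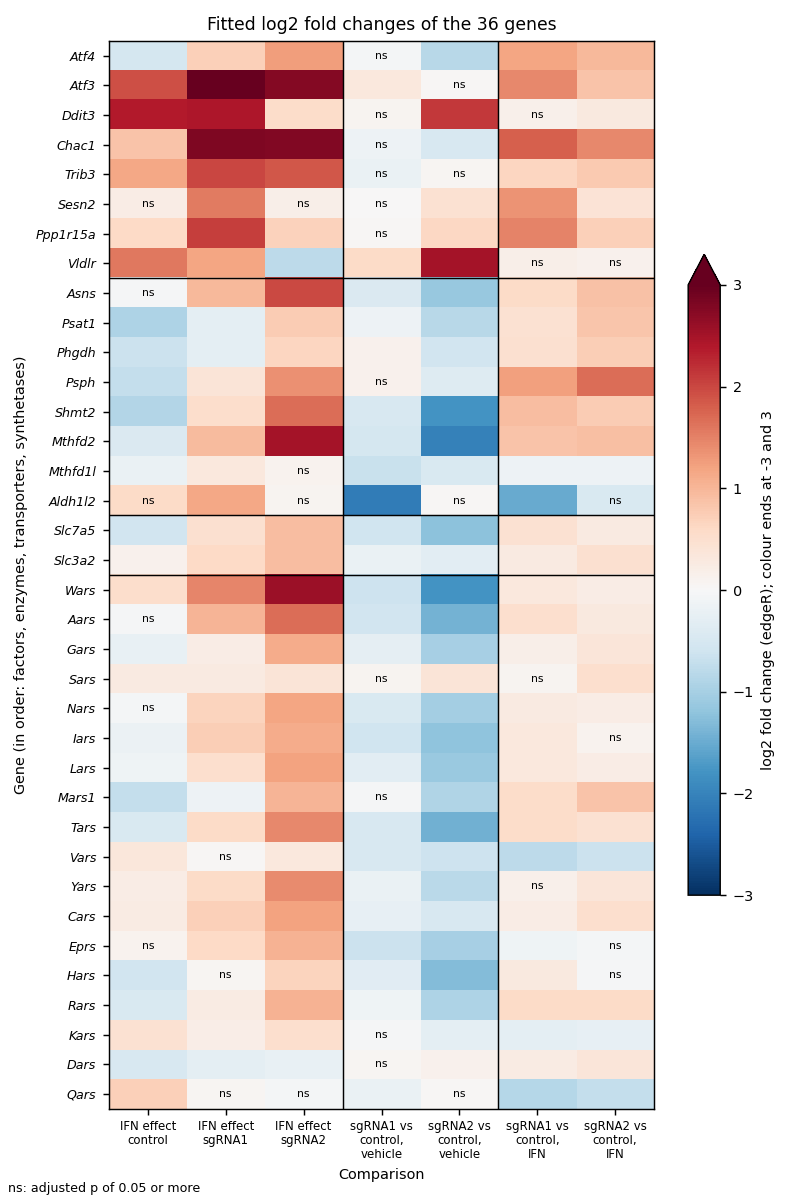
Heat map of log2 fold changes of the 36 members (rows, grouped by role) in 7 comparisons (columns), from edgeR's fit over all genes; "ns" marks values with an adjusted p of 0.05 or more. The 3 IFN-gamma columns go from mixed in control to almost all higher with either guide, and the column of sgRNA2 against control in vehicle is almost all lower among enzymes and synthetases.

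The Atf4 mRNA itself (mm10 chromosome 15, 80255184 to 80257541, plus strand) fell with IFN-gamma in control cells and rose in both guide lines. Atf4 lay at 227 and 234 CPM in control cells, 216 and 224 in sgRNA1 cells and 129 and 132 in sgRNA2 cells given vehicle, and at 163 and 157 in control, 369 and 352 in sgRNA1 and 315 and 312 in sgRNA2 cells given IFN-gamma. The log2 fold change with IFN-gamma was -0.53 ± 0.04 (SE) in control (adjusted p = 4.23e-09), 0.71 ± 0.04 with sgRNA1 and 1.27 ± 0.04 with sgRNA2. No library of a guide line in IFN-gamma overlapped with control in IFN-gamma, and in vehicle the sgRNA2 libraries lay below control (log2 fold change -0.82 ± 0.04, adjusted p = 1.20e-11; with sgRNA1 -0.07 ± 0.04, adjusted p = 0.219). Between the guides in vehicle, sgRNA2 differed from sgRNA1 for Atf4 by -0.76 ± 0.04 (adjusted p = 1.02e-10).

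Atf3, a stress-induced factor that can repress genes ATF4 induces, and Chac1, which degrades glutathione, rose in every line and most in the guide lines. Atf3 lay at 14.05 and 13.1 CPM in control cells, 16.8 and 17.1 in sgRNA1 cells and 14.1 and 13.7 in sgRNA2 cells given vehicle, and at 52.5 and 51.6 in control, 143 and 141 in sgRNA1 and 90.9 and 96.1 in sgRNA2 cells given IFN-gamma. Chac1 stood at 11.7 and 13.4 CPM in control cells, 12.1 and 10.2 in sgRNA1 cells and 9.02 and 8.85 in sgRNA2 cells given vehicle, and at 23.4 and 22.2 in control, 80.6 and 76.5 in sgRNA1 and 60.6 and 62.5 in sgRNA2 cells given IFN-gamma. In IFN-gamma the control libraries lay below every guide library for both genes, with log2 fold changes against control of 1.45 ± 0.05 and 0.85 ± 0.05 for Atf3 and 1.79 ± 0.07 and 1.43 ± 0.07 for Chac1 with sgRNA1 and sgRNA2 (largest adjusted p = 1.50e-10). Trib3, a pseudokinase that restrains ATF4 and CHOP, did likewise at a smaller size. Trib3 was at 19.0 and 16.99 CPM in control cells, 14.4 and 16.9 in sgRNA1 cells and 20.6 and 16.8 in sgRNA2 cells given vehicle, and at 39.3 and 40.7 in control, 63.8 and 61.3 in sgRNA1 and 71.8 and 66.1 in sgRNA2 cells given IFN-gamma. The rise of Trib3 with IFN-gamma was 1.15 ± 0.09 on the log2 scale in control, 2.003 ± 0.09 with sgRNA1 and 1.87 ± 0.09 with sgRNA2, and its vehicle levels in the guide lines missed the threshold against control (adjusted p = 0.108 and 0.606).

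Ddit3 encodes the factor CHOP, and Vldlr is a lipoprotein receptor that ATF4 is known to induce. With sgRNA2 in vehicle, where Atf4 was lower than control, both were at least 2-fold higher. Atf3, Chac1 and Trib3 also departed from Atf4, since they rose with IFN-gamma in control, where Atf4 fell. Ddit3 lay at 9.14 and 10.3 CPM in control cells, 9.92 and 10.9 in sgRNA1 cells and 41.1 and 43.0 in sgRNA2 cells given vehicle, and at 50.8 and 50.2 in control, 57.8 and 53.5 in sgRNA1 and 61.8 and 61.9 in sgRNA2 cells given IFN-gamma. Ddit3 rose by 2.38 ± 0.08 on the log2 scale in control and 2.43 ± 0.08 with sgRNA1, but with sgRNA2 it was already high in vehicle, 2.11 ± 0.08 above control, and rose by 0.56 ± 0.06. Vldlr lay at 2.89 and 2.25 CPM in control cells, 4.13 and 3.56 in sgRNA1 cells and 15.04 and 14.2 in sgRNA2 cells given vehicle, and at 8.17 and 7.30 in control, 8.29 and 9.29 in sgRNA1 and 7.14 and 9.69 in sgRNA2 cells given IFN-gamma. Vldlr was likewise highest with sgRNA2 in vehicle, 2.502 ± 0.18 above control (adjusted p = 6.20e-10), and with IFN-gamma it rose in control (1.59 ± 0.19) and fell with sgRNA2 (-0.78 ± 0.15, adjusted p = 2.36e-04). Of the Ddit3 exons, 81 bases overlap other genes, mainly the end of Mars1 on the opposite strand. The library kit does not mark strand, so those reads could count for either gene or for none. With IFN-gamma the levels of Ddit3 and Mars1 moved in opposite directions in control (log2 fold changes 2.38 and -0.72). With sgRNA2 both rose, Mars1 from a mean of 104 to 211 CPM. The part of the shared bases in these levels was not tested.

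Ppp1r15a, whose product GADD34 removes the phosphate from eIF2, and Sesn2, a leucine sensor that restrains mTORC1, stood out with sgRNA1. Ppp1r15a lay at 9.66 and 9.65 CPM in control cells, 9.56 and 10.1 in sgRNA1 cells and 16.0 and 13.6 in sgRNA2 cells given vehicle, and at 15.4 and 13.9 in control, 40.7 and 41.7 in sgRNA1 and 24.7 and 23.3 in sgRNA2 cells given IFN-gamma. Sesn2 stood at 5.84 and 5.40 CPM in control cells, 5.34 and 6.04 in sgRNA1 cells and 7.88 and 7.55 in sgRNA2 cells given vehicle, and at 6.14 and 7.04 in control, 16.4 and 17.1 in sgRNA1 and 8.43 and 9.11 in sgRNA2 cells given IFN-gamma. In IFN-gamma every sgRNA1 library exceeded every other library for both genes. The IFN-gamma response with sgRNA1 exceeded that of control by 1.47 ± 0.15 for Ppp1r15a and 1.33 ± 0.20 for Sesn2 (interaction, adjusted p = 1.84e-07 and 1.44e-05). With sgRNA2 the same differences were 0.09 ± 0.15 and -0.04 ± 0.19 (adjusted p = 0.611 and 0.869), so both missed the threshold there. Among the 8 factors and feedback genes, 6 rose and 1 fell with IFN-gamma in control (36.4% and 34.1% of all tested genes). With sgRNA1, 8 rose (31.7%), and with sgRNA2, 6 rose and 1 fell (30.5% and 29.2%).

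**Figure D2:**
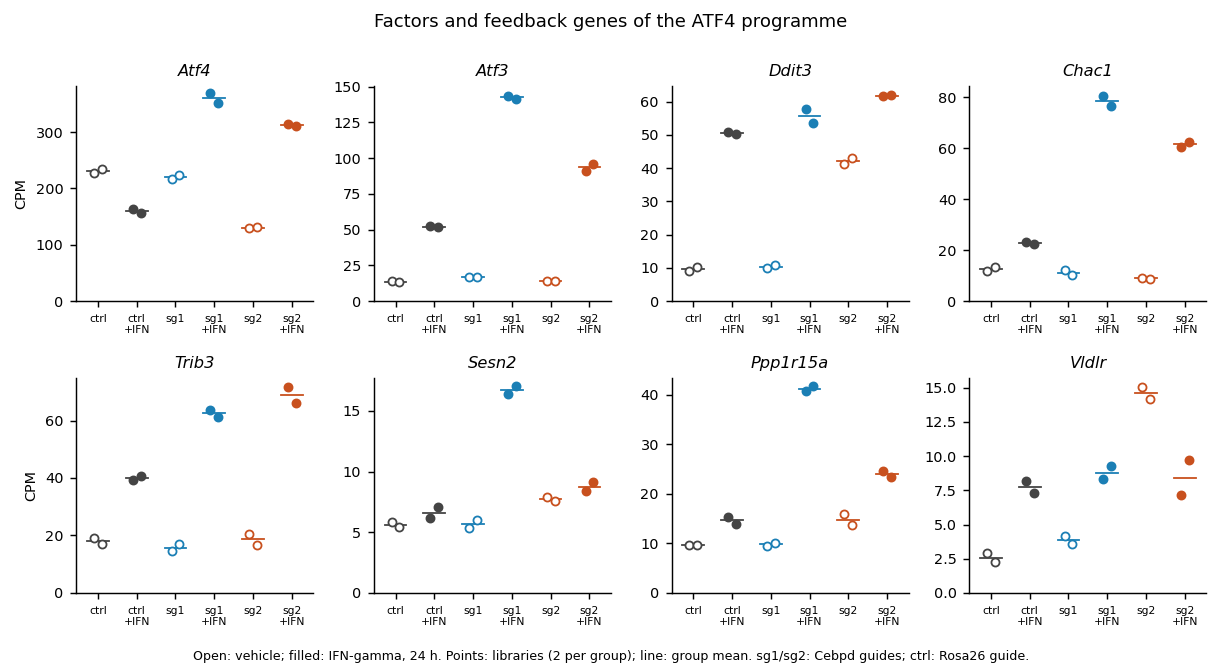
CPM (vertical axes) of the 8 factors and feedback genes in the 6 groups; points are libraries, open for vehicle and filled for IFN-gamma, and lines are group means. Atf4 is lowest in sgRNA2 vehicle libraries and above control in both guide lines after IFN-gamma, while Ddit3 and Vldlr are already high in sgRNA2 vehicle libraries.

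The enzymes that build serine fell with IFN-gamma in control cells and rose in the sgRNA2 line. Phgdh opens the pathway from a glycolytic intermediate, Psat1 adds the amino group and Psph removes the phosphate to release serine. Phgdh lay at 632 and 580.3 CPM in control cells, 680.4 and 644 in sgRNA1 cells and 425 and 395 in sgRNA2 cells given vehicle, and at 393 and 378 in control, 534 and 539 in sgRNA1 and 640.0 and 652 in sgRNA2 cells given IFN-gamma. Psat1 stood at 635 and 592 CPM in control cells, 538 and 564 in sgRNA1 cells and 344 and 341 in sgRNA2 cells given vehicle, and at 326 and 325 in control, 448 and 451 in sgRNA1 and 588 and 569 in sgRNA2 cells given IFN-gamma. Psph was at 68.4 and 59.0 CPM in control cells, 70.8 and 68.8 in sgRNA1 cells and 48.0 and 49.0 in sgRNA2 cells given vehicle, and at 37.6 and 39.8 in control, 91.2 and 90.3 in sgRNA1 and 123 and 126 in sgRNA2 cells given IFN-gamma. In control IFN-gamma libraries these 3 genes had their lowest group means. Their log2 fold changes with IFN-gamma were -0.65 ± 0.05, -0.92 ± 0.04 and -0.72 ± 0.06 in control and 0.66 ± 0.05, 0.76 ± 0.04 and 1.36 ± 0.06 with sgRNA2 (largest adjusted p = 2.59e-09). With sgRNA1, Phgdh (-0.30) and Psat1 (-0.29) fell and Psph rose (0.38). Psph exons share 10.4% of their bases with Cct6a on the opposite strand.

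The mitochondrial folate enzymes Shmt2 and Mthfd2 were lowered more than the other enzymes in sgRNA2 vehicle libraries. Shmt2 splits serine into glycine and a folate-bound carbon unit, and Mthfd2 oxidises that unit. Mthfd2 lay at 78.3 and 79.8 CPM in control cells, 55.8 and 54.5 in sgRNA1 cells and 20.9 and 17.8 in sgRNA2 cells given vehicle, and at 59.1 and 57.1 in control, 106 and 106 in sgRNA1 and 114 and 105 in sgRNA2 cells given IFN-gamma. Shmt2 stood at 257 and 247 CPM in control cells, 184 and 179 in sgRNA1 cells and 74.0 and 71.8 in sgRNA2 cells given vehicle, and at 140.1 and 135 in control, 256 and 264 in sgRNA1 and 239 and 225 in sgRNA2 cells given IFN-gamma. The sgRNA2 vehicle libraries lay below every other library for both genes, -2.03 ± 0.07 and -1.79 ± 0.05 on the log2 scale from control (adjusted p = 2.69e-14 and 1.48e-15). With IFN-gamma both fell in control (-0.44 ± 0.06 and -0.88 ± 0.05) and rose with sgRNA1 (0.94 ± 0.06 and 0.52 ± 0.05) and with sgRNA2 (2.49 ± 0.07 and 1.67 ± 0.05). The difference of that response between sgRNA2 and control, 2.94 ± 0.09 for Mthfd2 and 2.55 ± 0.07 for Shmt2, was larger than for any other member. The windows of these genes differed: Shmt2 held the TTCNNNGAA match printed above and Mthfd2 held none of the 3 searched motifs.

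The remaining enzymes split. Asns, which makes asparagine and is a textbook ATF4 target with the CARE match printed above, rose in both guide lines and missed the threshold in control. Asns lay at 102 and 97.3 CPM in control cells, 74.2 and 73.6 in sgRNA1 cells and 44.4 and 46.8 in sgRNA2 cells given vehicle, and at 97.2 and 98.7 in control, 142 and 148 in sgRNA1 and 188 and 173 in sgRNA2 cells given IFN-gamma. Its log2 fold change with IFN-gamma was -0.02 ± 0.05 in control (adjusted p = 0.694), 0.97 ± 0.05 with sgRNA1 and 1.98 ± 0.05 with sgRNA2. Mthfd1l, which releases formate from mitochondria, moved less than the others and was at 127 ± 0.754 CPM (SD, n = 2) in control vehicle. Like those of Phgdh and Psat1, its 6 group means ranged over less than 2-fold. It was lower than control with both guides in vehicle (-0.66 ± 0.05 and -0.46 ± 0.05) and also in IFN-gamma (-0.15 ± 0.05 and -0.16 ± 0.05), but the last 2 calls were lost under another scaling. Aldh1l2 lay at 1.34 and 1.52 CPM in control cells, 0.352 and 0.302 in sgRNA1 cells and 1.504 and 1.42 in sgRNA2 cells given vehicle, and at 2.32 and 1.95 in control, 0.609 and 0.894 in sgRNA1 and 1.93 and 1.22 in sgRNA2 cells given IFN-gamma. Aldh1l2, a mitochondrial enzyme that burns folate-bound carbon, was barely expressed, with its lowest values in the sgRNA1 libraries in vehicle (-2.10 ± 0.45, adjusted p = 7.37e-04). Its exons share 14.1% of their bases with D10Wsu102e on the opposite strand. Of the 8 enzymes, none rose and 6 fell with IFN-gamma in control (36.4% and 34.1% of all tested genes). With sgRNA1, 6 rose and 2 fell (31.7% and 29.6%), and with sgRNA2, 6 rose and none fell (30.5% and 29.2%).

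**Figure D3:**
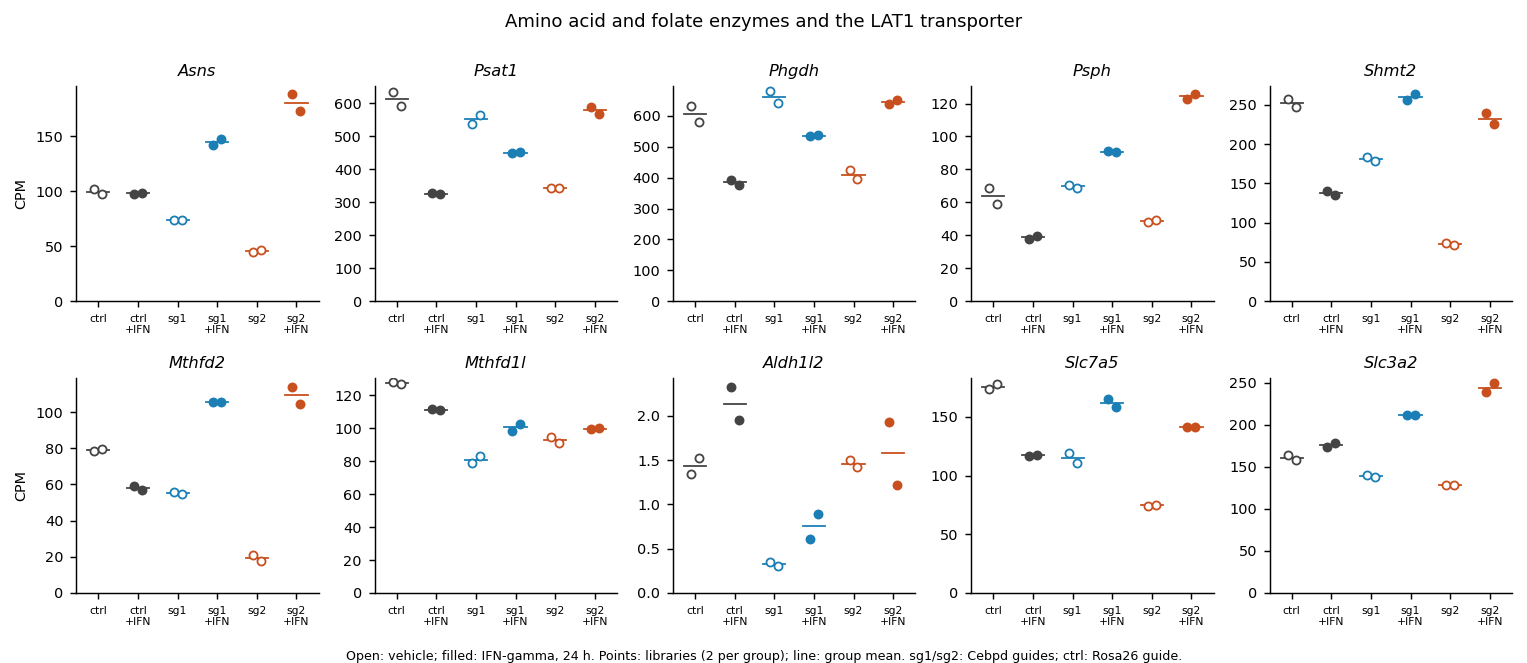
CPM (vertical axes) of the 8 enzymes and 2 transporter genes in the 6 groups; points are libraries, open for vehicle and filled for IFN-gamma, and lines are group means. In sgRNA2 vehicle libraries Shmt2, Mthfd2, Asns and Slc7a5 sit below every other group, and in IFN-gamma both guide lines sit above control for these 4 genes.

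The subunits of the large neutral amino acid transporter, which exchanges intracellular glutamine for leucine and other essential amino acids, moved unequally. Slc7a5 is the transporting chain and Slc3a2 the chain that carries it to the membrane. Slc7a5 lay at 173 and 178 CPM in control cells, 119 and 111 in sgRNA1 cells and 74.5 and 75.2 in sgRNA2 cells given vehicle, and at 117 and 118 in control, 165 and 158 in sgRNA1 and 142 and 142 in sgRNA2 cells given IFN-gamma. Slc3a2 stood at 164 and 158 CPM in control cells, 140.2 and 138 in sgRNA1 cells and 128 and 129 in sgRNA2 cells given vehicle, and at 173 and 178 in control, 211 and 212 in sgRNA1 and 239 and 249 in sgRNA2 cells given IFN-gamma. In vehicle Slc7a5 was -0.61 ± 0.05 and -1.23 ± 0.05 from control with sgRNA1 and sgRNA2, and Slc3a2 -0.21 ± 0.04 and -0.32 ± 0.04. With IFN-gamma Slc7a5 fell in control (-0.58 ± 0.04) and rose in both guide lines (0.49 ± 0.05 and 0.92 ± 0.05), while Slc3a2 rose in all 3 lines (0.13 ± 0.04, 0.61 ± 0.04 and 0.92 ± 0.04). The small rise of Slc3a2 in control was lost with upper quartile scaling (adjusted p = 0.176).

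Among the 18 synthetases, 7 rose and 8 fell with IFN-gamma in control, not far from all tested genes (36.4% and 34.1%). With sgRNA1, 13 rose and 2 fell (31.7% and 29.6%), and with sgRNA2, 16 rose and 1 fell (30.5% and 29.2%). In vehicle 14 were lower and none higher with sgRNA1 than in control (26.9% and 25.6% of all tested genes). With sgRNA2, 15 were lower and 2 higher there (35.0% and 38.3%). In IFN-gamma 12 were higher and 4 lower with sgRNA1 (31.6% and 33.3%), and 12 higher and 3 lower with sgRNA2 (30.2% and 31.6%). Their median log2 fold change was -0.05, 0.39 and 1.08 with IFN-gamma in control, sgRNA1 and sgRNA2. Without Wars, the member with a known IFN-gamma response of its own, the medians were -0.06, 0.27 and 1.05.

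Wars, which charges tRNA with tryptophan (mm10 chromosome 12, 108860030 to 108894174, minus strand), had the largest change of the synthetases with IFN-gamma in each guide line and in sgRNA2 vehicle against control. Wars lay at 117 and 115 CPM in control cells, 76.1 and 75.3 in sgRNA1 cells and 35.3 and 31.2 in sgRNA2 cells given vehicle, and at 169.6 and 165 in control, 208 and 209.6 in sgRNA1 and 198 and 195 in sgRNA2 cells given IFN-gamma. It rose in all 3 lines, by 0.52 ± 0.05 in control, 1.47 ± 0.05 with sgRNA1 and 2.56 ± 0.05 with sgRNA2. The IFN-gamma end levels differed by little (0.32 ± 0.05 and 0.23 ± 0.05 from control), and the vehicle levels by much (-0.62 ± 0.05 and -1.80 ± 0.05, largest adjusted p = 1.40e-08). Between the guides in vehicle, sgRNA2 differed from sgRNA1 by -1.18 ± 0.06.

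Aars, Tars and Iars were lower than control in vehicle with both guides, and higher than control in IFN-gamma with sgRNA1. Aars lay at 347 and 354 CPM in control cells, 238 and 236 in sgRNA1 cells and 126 and 137 in sgRNA2 cells given vehicle, and at 341 and 341 in control, 476 and 488 in sgRNA1 and 416 and 418 in sgRNA2 cells given IFN-gamma. Aars charges tRNA with alanine and Tars with threonine. Tars stood at 205 and 207 CPM in control cells, 145 and 149 in sgRNA1 cells and 74.9 and 77.5 in sgRNA2 cells given vehicle, and at 157 and 143 in control, 219 and 222 in sgRNA1 and 215 and 198 in sgRNA2 cells given IFN-gamma. Iars was at 159.8 and 161 CPM in control cells, 110.5 and 100.2 in sgRNA1 cells and 68.6 and 70.1 in sgRNA2 cells given vehicle, and at 143 and 139 in control, 177 and 177 in sgRNA1 and 149 and 154 in sgRNA2 cells given IFN-gamma. Iars charges tRNA with isoleucine. In sgRNA2 vehicle libraries these 3 genes were -1.42 ± 0.05, -1.44 ± 0.05 and -1.21 ± 0.05 from control on the log2 scale, and with IFN-gamma they rose by 1.67 ± 0.05, 1.44 ± 0.05 and 1.12 ± 0.05 there. In IFN-gamma with sgRNA1 they stood 0.50 ± 0.04, 0.56 ± 0.05 and 0.32 ± 0.05 from control (largest adjusted p = 7.89e-06), and with sgRNA2 Iars missed the threshold (0.10 ± 0.05, adjusted p = 0.0812). Tars and Iars hold a CARE match printed above. Exonic bases of Aars are shared with Exosc6 on the same strand for 15.1% of its length, so some of its reads may be ambiguous.

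Nars, Lars and Hars, for asparagine, leucine and histidine, were lower than control in vehicle with both guides as well. Nars lay at 192 and 208 CPM in control cells, 146 and 144 in sgRNA1 cells and 99.2 and 96.2 in sgRNA2 cells given vehicle, and at 198 and 186 in control, 228 and 234 in sgRNA1 and 218 and 226 in sgRNA2 cells given IFN-gamma. Lars stood at 123 and 121 CPM in control cells, 99.0 and 96.1 in sgRNA1 cells and 57.7 and 55.0 in sgRNA2 cells given vehicle, and at 111 and 112 in control, 135 and 142 in sgRNA1 and 127 and 134 in sgRNA2 cells given IFN-gamma. Hars was at 91.1 and 96.8 CPM in control cells, 78.3 and 69.3 in sgRNA1 cells and 39.0 and 37.8 in sgRNA2 cells given vehicle, and at 64.5 and 61.4 in control, 74.7 and 78.8 in sgRNA1 and 61.8 and 61.1 in sgRNA2 cells given IFN-gamma. Against control in vehicle their log2 fold changes with sgRNA2 were -1.03 ± 0.05, -1.12 ± 0.05 and -1.29 ± 0.06 (largest adjusted p = 3.03e-12). Hars differed in that its level in IFN-gamma with sgRNA2 was not separated from control (-0.04 ± 0.06, adjusted p = 0.631), and its exons share 7.97% of their bases with Hars2 on the opposite strand.

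Gars, Rars and Mars1, for glycine, arginine and methionine, differed less from control with sgRNA1 in vehicle than with sgRNA2, as most synthetases did. Gars lay at 292 and 279.8 CPM in control cells, 235 and 240.9 in sgRNA1 cells and 143 and 144 in sgRNA2 cells given vehicle, and at 243 and 244 in control, 273 and 281 in sgRNA1 and 315 and 308 in sgRNA2 cells given IFN-gamma. Rars stood at 165 and 165 CPM in control cells, 147 and 155 in sgRNA1 cells and 86.4 and 86.0 in sgRNA2 cells given vehicle, and at 120.0 and 121 in control, 179.7 and 179 in sgRNA1 and 183 and 174 in sgRNA2 cells given IFN-gamma. Mars1 was at 194 and 193 CPM in control cells, 190.4 and 188 in sgRNA1 cells and 104 and 104 in sgRNA2 cells given vehicle, and at 117 and 118 in control, 179 and 164 in sgRNA1 and 212 and 210.3 in sgRNA2 cells given IFN-gamma. Against control in vehicle they were -0.27 ± 0.04, -0.13 ± 0.04 and -0.03 ± 0.05 with sgRNA1 (Mars1 adjusted p = 0.606) and -0.99 ± 0.04, -0.94 ± 0.05 and -0.90 ± 0.05 with sgRNA2. The direct difference between the guides in vehicle was -0.73 ± 0.04, -0.80 ± 0.05 and -0.87 ± 0.05 (largest adjusted p = 9.58e-11). The small shift of Rars with sgRNA1 was lost with upper quartile scaling.

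Yars, Cars and Eprs, for tyrosine, cysteine and glutamate with proline, rose at least 2-fold with IFN-gamma in the sgRNA2 line and less than 2-fold in the others. Several other synthetases did likewise. Of the 18, 12 rose at least 2-fold with sgRNA2, 2 with sgRNA1 and none in control (4.57%, 6.89% and 12.4% of all tested genes). Yars lay at 76.7 and 88.0 CPM in control cells, 73.8 and 68.5 in sgRNA1 cells and 49.9 and 44.3 in sgRNA2 cells given vehicle, and at 96.6 and 96.8 in control, 103 and 110.1 in sgRNA1 and 127 and 124 in sgRNA2 cells given IFN-gamma. Cars stood at 80.1 and 83.6 CPM in control cells, 68.1 and 69.3 in sgRNA1 cells and 58.3 and 59.9 in sgRNA2 cells given vehicle, and at 98.4 and 95.2 in control, 113 and 114 in sgRNA1 and 141 and 132 in sgRNA2 cells given IFN-gamma. Eprs was at 284 and 269 CPM in control cells, 179 and 177 in sgRNA1 cells and 134 and 143 in sgRNA2 cells given vehicle, and at 298 and 293 in control, 257 and 279 in sgRNA1 and 295 and 273 in sgRNA2 cells given IFN-gamma. The sgRNA2 response was 1.41 ± 0.07, 1.21 ± 0.05 and 1.03 ± 0.05, against 0.23 ± 0.07, 0.24 ± 0.05 and 0.10 ± 0.05 in control. The interaction of sgRNA2 with IFN-gamma was 1.17 ± 0.09, 0.97 ± 0.07 and 0.94 ± 0.07 (largest adjusted p = 4.14e-09). For Eprs the IFN-gamma level with sgRNA2 was not separated from control (-0.06 ± 0.05, adjusted p = 0.337).

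The last 5 synthetases, Sars, Vars, Kars, Dars and Qars, changed less than 2-fold in every comparison. None of them was both lower than control in vehicle and higher than control in IFN-gamma with the same guide. Qars lay at 178 and 182 CPM in control cells, 157 and 156 in sgRNA1 cells and 184 and 188 in sgRNA2 cells given vehicle, and at 301 and 290.1 in control, 165 and 160.2 in sgRNA1 and 174 and 184 in sgRNA2 cells given IFN-gamma. Qars, for glutamine, rose in control (0.71 ± 0.04) but missed the threshold in both guide lines (adjusted p = 0.310 and 0.331), and stood lower than control in IFN-gamma (-0.86 ± 0.04 and -0.72 ± 0.04). Vars, for valine, and Kars, for lysine, were also lower than control in IFN-gamma with both guides (-0.79 and -0.64, -0.30 and -0.25). In vehicle Vars was likewise below control with both guides, at 585 and 588 CPM in control, 431 and 404 in sgRNA1 and 391 and 372 in sgRNA2 libraries. Kars in vehicle was at 361 and 352 CPM in control, 350 and 341 in sgRNA1 and 294 and 283 in sgRNA2 libraries. Dars, for aspartate, fell in all 3 lines (log2 fold changes -0.47, -0.29 and -0.23). Sars, for serine, rose in all 3 (0.26, 0.27 and 0.38).

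**Figure D4:**
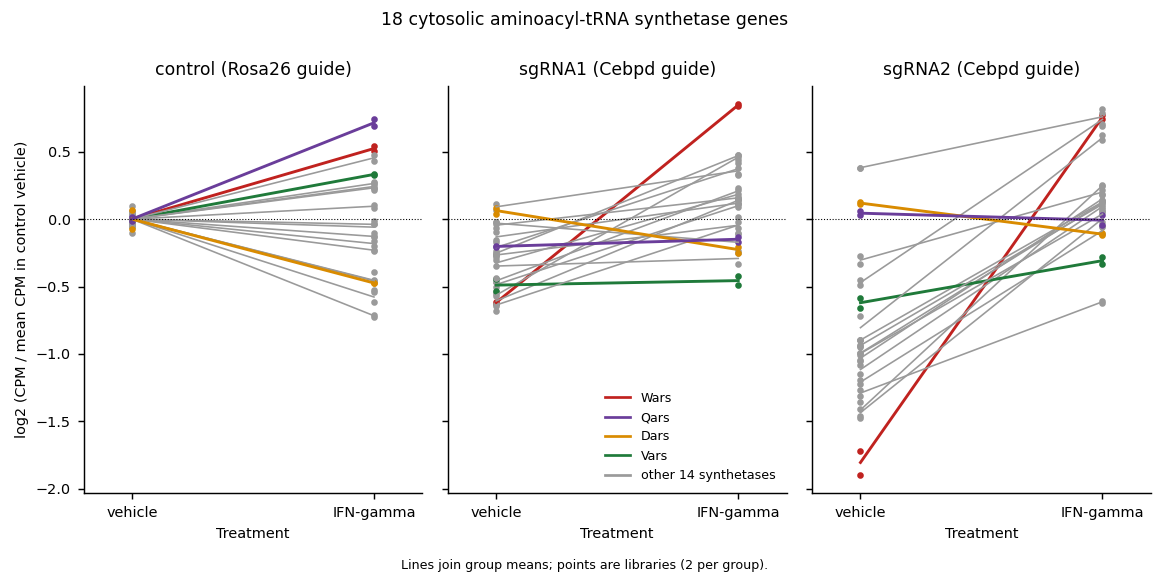
Level of the 18 synthetase mRNAs as log2 of CPM over the mean CPM in control vehicle (vertical axis) in vehicle and IFN-gamma (horizontal axis) for each line (panels); points are libraries and lines join the means of 2 libraries. The lines spread to both sides of 0 in control, and most start below 0 and rise in the guide lines. That of Dars falls in every panel, and that of Qars has the steepest rise in control.

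Divided by exon length (RPKM, reads scaled by library size and kilobases of annotated exon), the order of levels among the members also moved. In control vehicle Phgdh was highest at 244 ± 14.7 (SD, n = 2), ahead of Psat1 at 144 ± 7.16 and Vars at 105 ± 0.380. Atf4 was the fourth of the 36 at 97.7 ± 2.23, and differed from its neighbours Vars and Gars (91.7 ± 2.86) by more than the SD of either. In sgRNA1 IFN-gamma libraries Atf4 reached 153 ± 4.98 and was second to Phgdh at 216 ± 1.48. Aldh1l2 and Vldlr were the lowest in each of these groups, at 0.191 ± 0.0167 and 0.256 ± 0.0448 in control vehicle. These values depend on the annotated exons, since the transcripts used by the cells are not known.

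The guides were also compared directly. In vehicle, 26 members were lower and 9 higher with sgRNA2 than with sgRNA1 (29.1% and 33.2% of all genes). Mthfd2 (-1.51 ± 0.07), Shmt2 (-1.32 ± 0.05) and Wars (-1.18 ± 0.06) were at least 2-fold lower (4.69% of all genes were), and Ddit3 (2.02 ± 0.08), Vldlr (1.92 ± 0.17) and Aldh1l2 (2.13 ± 0.45) at least 2-fold higher (8.36%). In IFN-gamma 14 were higher and 10 lower with sgRNA2 (23.4% and 24.5%), with a median log2 fold change of 0.04. The largest of these were a higher value of the weakly expressed Aldh1l2 (1.04 ± 0.37) and lower values of Sesn2 (-0.93 ± 0.12) and Ppp1r15a (-0.78 ± 0.09). With the mean of both guides against control, 27 members were lower and 5 higher in vehicle (33.7% and 34.0% of all genes), and 29 were higher and 5 lower in IFN-gamma (32.5% and 33.4%). When the libraries of both guides were fitted as 1 group per treatment, so that the difference between guides counts as error, 17 lower and 1 higher member were called in vehicle (14.8% and 17.5% of all genes) and 13 higher and 3 lower in IFN-gamma (14.5% and 17.6%). Among those that stayed called in vehicle were Wars, Aars, Iars, Slc7a5, Asns, Shmt2 and Mthfd2, and in IFN-gamma Atf4 (1.08, adjusted p = 0.00428), Chac1 (1.62, adjusted p = 1.06e-04), Psph (1.47, adjusted p = 5.51e-04) and Atf3 (1.18, adjusted p = 0.00135). Of the synthetases in IFN-gamma, that fit called Cars and Dars higher and Vars, Kars and Qars lower, and the other 13 missed its threshold, Wars among them (0.28, adjusted p = 0.524).

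Other known ATF4 targets, a list of 27 tested genes, rose in 17 cases and fell in 8 with IFN-gamma in control (36.4% and 34.1% of all tested genes). With sgRNA1, 22 rose and 3 fell (31.7% and 29.6%), and with sgRNA2, 18 rose and 5 fell (30.5% and 29.2%). Slc7a11, the cystine importer, fell in control (-0.59 ± 0.12) and rose with sgRNA1 (1.93 ± 0.11) and sgRNA2 (2.98 ± 0.13). It does not stand for the list, whose log2 fold changes ran from -1.55 to 2.74 in control and from -2.42 to 2.98 with sgRNA2. Gadd45a rose in control from 10.7 and 12.2 to 80.9 and 72.4 CPM. Ddit4 fell with sgRNA2 from 1086 and 1088 to 200 and 206 CPM. The medians of the list were 0.35 in control, 0.78 with sgRNA1 and 0.46 with sgRNA2. With sgRNA2 in vehicle 14 of the 27 were higher than control and 10 lower (38.3% and 35.0% of all tested genes). Gadd45a (3.44 ± 0.09) and Ddit4 (2.42 ± 0.05), which respond to several stresses, were higher there, and the glutamine importer Slc1a5 (-2.08 ± 0.08) and the arginine importer Slc7a1 (-1.89 ± 0.05) lower. Cbs, Gdf15 and Bcat1 were not analysed here.

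The 18 genes of the upstream kinases and of the eIF2 machinery rose in 3 cases and fell in 11 with IFN-gamma in control. Of all tested genes 36.4% rose and 34.1% fell there. With sgRNA1, 5 rose and 6 fell, near the shares of all genes (31.7% and 29.6%), and with sgRNA2, 12 rose and 3 fell (30.5% and 29.2%). The medians of these 18 genes were -0.25, 0.01 and 0.29. Eif2ak2, the double-stranded RNA kinase PKR and a known interferon-induced gene, rose in all 3 lines (1.44 ± 0.06, 1.91 ± 0.06 and 1.42 ± 0.06). Eif2ak3, the endoplasmic reticulum kinase PERK, rose in control (1.06 ± 0.08), where Eif2s1, the subunit that is phosphorylated, fell (-1.001 ± 0.05). In vehicle with sgRNA2, Ppp1r15b, the constant partner of the eIF2 phosphatase, was lower (-1.32 ± 0.06), while the inducible Ppp1r15a was higher (0.62 ± 0.11).

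Mitochondrial synthetases, which charge tRNAs inside the organelle, mostly fell with IFN-gamma in control and were mostly lower than control with sgRNA2 in vehicle. Of 17, 2 rose and 13 fell with IFN-gamma in control (36.4% and 34.1% of all tested genes). With sgRNA1, none rose and 5 fell (31.7% and 29.6%), and with sgRNA2, 6 rose and 1 fell (30.5% and 29.2%). The medians were -0.63, -0.13 and 0.24. Against control, 13 were lower and 1 higher in sgRNA2 vehicle libraries (35.0% and 38.3%). Mars2 had the largest fall in control (-2.58 ± 0.13) and the largest rise with sgRNA2 (0.83 ± 0.13). Of the 5 scaffold and phenylalanyl-tRNA synthetase genes, 4 fell in control (34.1% of all tested genes), among them Aimp2 (-1.90 ± 0.06). In sgRNA2 vehicle libraries 4 of these 5 were lower (35.0%), among them Farsa (-1.12 ± 0.05).

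The other folate and serine genes mostly fell with IFN-gamma in control, as Shmt2 and Mthfd2 did. Of 11 tested, 8 fell and 1 rose with IFN-gamma in control (34.1% and 36.4% of all tested genes). With sgRNA1, 8 fell and 1 rose (29.6% and 31.7%), and with sgRNA2, 4 rose and 2 fell (30.5% and 29.2%). The medians were -0.60, -0.24 and 0.05. The mitochondrial folate carrier Slc25a32 fell most in control (-2.44 ± 0.08), next to Gcsh of the glycine cleavage system (-2.23 ± 0.06). With sgRNA2 the cytosolic enzymes Mthfd1 (0.998 ± 0.05) and Shmt1 (0.93 ± 0.06) rose. Of the vehicle libraries, those with sgRNA2 had Shmt1 (-2.000 ± 0.06) and Slc25a32 (-1.96 ± 0.08) among 7 genes lower than control, beside 2 that were higher. Of all tested genes 35.0% were lower and 38.3% higher there.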

How the data were processed

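Counts from 12 4T1 RNA libraries were used, prepared with an unstranded Illumina TruSeq kit per the labels' protocols. The authors deposited raw whole-number counts per gene. Of tools, the submitters' processing notes list STAR (2.4.0), HTSeq, DESeq2 (1.10) and the build mm10, with no roles. Annotation, strand setting and filters: not given in the sources used here. Titles and treatment labels gave the groups. The members, the other gene lists and the naming rule were chosen with earlier results of these data known.

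Genes were kept with filterByExpr (minimum count 10, minimum total 15; 13601 of 16283 genes, all 36 members), scaled by TMM (factors 0.963 to 1.09) and fitted over all 6 groups with edgeR 4.0.16 (limma 3.58.1, R 4.3.3) quasi-likelihood tests, Benjamini-Hochberg adjusted over all genes. The fit leaves 6 residual degrees of freedom, with a common biological coefficient of variation of 4.67%. SE is the absolute log2 fold change divided by the square root of F, so it restates the test. The contrasts were IFN-gamma against vehicle in each line, each guide and the mean of both against control per treatment, the guides against each other, and the interactions. The smallest and largest chi-square per degree of freedom between libraries of a group were 2.77 and 7.27, so none was a repeated deposit. Every member called at least 2-fold in any comparison, and the largest change of each role group, is given by library, and up to 4 genes of each other list are named, the 2 largest called rises and the 2 largest called falls with a mean of at least 1 CPM. Lengths and positions are from GENCODE on GRCm38 (the assembly of mm10), and 10 of the 36 members share exonic bases with another gene, at most 15.1%. Promoter windows are from RefSeq GRCm38.p6. Some promoter letters are not reported here. Scripts used Python 3.11.15 and were tested on simulated counts. The alternatives were upper quartile and RLE scaling, no filter on low counts, DESeq2 1.42.0, a replicate block, a joint group of both guides, and each library left out in turn.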

Additional observations from a re-analysis of the deposited data

Results flagged for a closer look

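The IFN-gamma response of 11 members with sgRNA1, and of 22 with sgRNA2, differed from that of control at least 2-fold by the interaction term of the edgeR fit (log2 differences ± SE; both sets share the control libraries). These values are differences of responses, not levels, and larger means more positive. With sgRNA1 the response was larger than in control for Atf4 (1.24 ± 0.06), Atf3 (1.13 ± 0.09), Chac1 (1.95 ± 0.12), Sesn2 (1.33 ± 0.20), Ppp1r15a (1.47 ± 0.15), Psph (1.098 ± 0.09), Shmt2 (1.39 ± 0.06), Mthfd2 (1.38 ± 0.08), Slc7a5 (1.07 ± 0.06), Aars (1.06 ± 0.06) and Tars (1.04 ± 0.07). With sgRNA2 it was larger for Atf4 (1.80 ± 0.06), Chac1 (1.92 ± 0.13), Asns (2.01 ± 0.07), Psat1 (1.67 ± 0.06), Phgdh (1.31 ± 0.07), Psph (2.08 ± 0.09), Shmt2 (2.55 ± 0.07), Mthfd2 (2.94 ± 0.09), Slc7a5 (1.503 ± 0.06), Wars (2.04 ± 0.07), Aars (1.70 ± 0.06), Gars (1.35 ± 0.06), Nars (1.24 ± 0.07), Iars (1.31 ± 0.07), Lars (1.34 ± 0.07), Mars1 (1.74 ± 0.07), Tars (1.90 ± 0.07), Yars (1.17 ± 0.09), Hars (1.25 ± 0.09) and Rars (1.501 ± 0.06), and smaller for Ddit3 (-1.82 ± 0.10) and Vldlr (-2.37 ± 0.24). The largest adjusted p among the 11 values with sgRNA1 was 1.44e-05, and among the 22 with sgRNA2 1.11e-07. Atf4, Chac1, Psph, Shmt2, Mthfd2, Slc7a5, Aars and Tars appear with both guides. In sgRNA2 vehicle libraries, the starting point of the second set, 6 of 7 IFN-gamma check genes already stood above control vehicle (38.3% of all tested genes). Mitochondrially encoded mRNAs took 1.12% and 1.14% of counts there against 0.670% and 0.620% in control vehicle. The part of these differences in the result was not tested.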

How the results depend on the processing

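Apart from the counts given here, member counts stayed within 1.5 times of the reported ones under every alternative run. For sgRNA1 against control in vehicle, the 3 higher members became 6 with upper quartile scaling and ranged from 1 to 4 with each library left out, 1 without the first sgRNA1 vehicle library. For the mean of both guides against control, fitting both guides as 1 group per treatment changed the members from 5 to 1 higher and from 27 to 17 lower in vehicle, and from 29 to 13 higher and from 5 to 3 lower in IFN-gamma. With each library left out the higher members in vehicle ranged from 3 to 6, with 3 without the first sgRNA2 vehicle library. This joint fit counts the difference between guides as error. Psph in that vehicle comparison turned from -0.13 to 0.00394 with upper quartile scaling (adjusted p = 0.954). That scaling moved the median of all genes from 0.03 to 0.13 for sgRNA1 and from 0.06 to 0.23 for sgRNA2 against control in vehicle, from -0.02 to -0.14 for IFN-gamma with sgRNA2, and from 0.03 to 0.13 for sgRNA2 against control in IFN-gamma. The share of calls that were higher moved from 48.8% to 62.8%, from 52.3% to 62.5% and from 51.1% to 38.1% in the first 3 of these, so the directions of smaller changes depend on it. Over 468 single member values, upper quartile scaling lost 16 calls with the sign kept and added 15. The call of Psph above, whose sign turned, was lost as well. DESeq2 lost 13 and added 1, RLE scaling lost 2 and added 4, and no filter lost 4 and added 2. Over 5616 values with 1 library left out, 102 lost and 36 gained a call. Of 108 member changes called at least 2-fold, only values of Aldh1l2 lost a call outside the joint fit (16 values), and in the joint fit Aldh1l2 and Ddit3 in vehicle did. The replicate numbers are shared by number only: deviations from group means correlated from -0.14 to 0.0552 over the 15 pairs of groups, none over 0.1. With the replicate block, 14 members rose and 16 fell with IFN-gamma in control, and 3 of 468 member values lost their call. Depth limits Aldh1l2 most, with fewer than 2 CPM in most libraries.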

Other observations

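Endoplasmic reticulum chaperones and genes of the other arms of the unfolded protein response mostly rose with IFN-gamma in control and mostly fell with sgRNA1. Of 16 genes, 10 rose and 5 fell with IFN-gamma in control (36.4% and 34.1% of all tested genes). With sgRNA1, 2 rose and 10 fell (31.7% and 29.6%), and with sgRNA2, 10 rose and 4 fell (30.5% and 29.2%). The medians were 0.24, -0.38 and 0.20. Hspa5, the main chaperone of the compartment, was chosen after its values were seen: it stood at 2669 and 2599 CPM in control vehicle libraries and 2862 and 2811 in control IFN-gamma libraries, and fell with sgRNA1 (-0.42 ± 0.04). The sensor gene Ern1 rose in control (0.995 ± 0.06) and Sec61b, a subunit of the translocation channel, fell in all 3 lines (-0.76 ± 0.06, -1.25 ± 0.06 and -0.85 ± 0.06). In sgRNA2 vehicle libraries Xbp1 (0.98 ± 0.06) and Dnajb9 (1.22 ± 0.09) were higher than control and Dnajb11 (-1.33 ± 0.06) and Hyou1 (-0.78 ± 0.04) lower.

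Among genes of tryptophan use, Ido2, which opens the kynurenine pathway, was nearly silent in vehicle at 0 and 0.105 CPM in control, while sgRNA1 libraries had 0.453 and 0.302 and sgRNA2 libraries 0.415 and 0.794. After IFN-gamma it was at 4.88 and 5.19 CPM in control, 1.45 and 1.19 in sgRNA1 and 1.72 and 2.47 in sgRNA2 libraries, so it was lower with both guides than in control (-1.92 ± 0.33 and -1.25 ± 0.31), where Wars was slightly higher. Ido1, Kynu, Kmo, Haao and Slc7a8 were not analysed here.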
